A study of Mus musculus with 2 samples.

Results

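Apoptosis genes were described here in memory T helper 2 (Th2) cells sorted by whether they produced interleukin-5. The genes are those of the BCL2 family, the caspases, the inhibitor of apoptosis proteins (IAPs) and their partners up to the p53 axis. Members were taken by gene symbol, as probe sets whose only annotated gene was 1 of 36 listed genes. This gave 85 probe sets of 32 genes, out of 18193 named genes on the array. Bcl2a1a shares its probe sets with near-identical copies, and it was not analysed here as a single gene. Bax, Ripk1 and Trp53 were not analysed here either. The IL-5+ and the IL-5- sample were both splenic memory CD4 T cells of BALB/c background with the transgenic DO11.10 receptor, specific for a peptide of ovalbumin. Both came from cells grown for 6 days with that peptide, 25 U/ml IL-2 and 100 U/ml IL-4, and then rested for 30 days in athymic nu/nu recipients, which have few T cells of their own. The sources used here do not state the age, sex and number of the animals or how cells were treated before the sort. RNA of each sorted fraction was hybridised to 1 Affymetrix array, so there were 2 arrays in all. Cell preparation, hybridisation and IL-5 production cannot be told apart in this design, and no p-value is given.

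T cells die by routes that meet at a few proteins. In the mitochondrial route, BH3-only proteins sense stress or loss of cytokines and release the pore formers BAX and BAK from their BCL2-type inhibitors. Cytochrome c then escapes, assembles with APAF1 and activates caspases, which the IAPs restrain. In the death receptor route, FADD recruits an initiator caspase, and c-FLIP holds it back. How many effector T cells survive as memory cells is known to depend on the balance of BIM and BCL2.

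The result for a gene is the log2 ratio of its signals, IL-5+ over IL-5-, at the brightest of its probe sets by mean log2 signal. A floor was placed at 36.3, the 40th percentile over both arrays, and lower signals were raised to it. A ratio with 1 signal under the floor is a bound ("at least"). With no replicates, error was gauged from how far probe sets of the same gene differed, using only probe sets above the floor on both arrays. This SD of the log2 ratio was 0.51 for mean signals from 36.3 to 112.8, 0.37 from 112.8 to 500, 0.26 from 500 to 2000 and 0.21 above 2000. It leaves out all variation between cell preparations. Il5, the sorting marker, had signals of 37085 in IL-5+ and 67.4 in IL-5- cells. All 6 T cell markers were above the floor on both arrays, Cd4 at 455 in IL-5+ against 471 in IL-5- cells and Cd3d at 9116 against 13553.

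All 32 genes passed the floor on an array, and 30 of them on both. None was 2-fold or more higher in IL-5+ cells, where 2.85% of 13133 measured named genes were. Casp6, Casp9 and Bok were lower by 2-fold or more, 3 of 32 genes, against a background of 4.01%. At 1.5-fold, 2 members were higher and 7 were lower, with backgrounds of 7.89% and 11.9%. Measured against the SD between probe sets, 8 members lay more than 2 SDs lower and 1 more than 2 SDs higher. The backgrounds for this rule were 7.42% lower and 5.51% higher, over measured named genes of all brightness levels and not matched to the members. The 8 were Bcl2, Bok, Bcl2l11, Bid, Bbc3, Casp6, Casp9 and Birc3, and the 1 was Casp1. Of the 8, Bok is a bound, for which the SD was not estimated, and the probe sets of Casp9 point both ways. The median log2 ratio over the 32 members was -0.056, close to the -0.048 of all measured named genes.

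**Figure D1:**
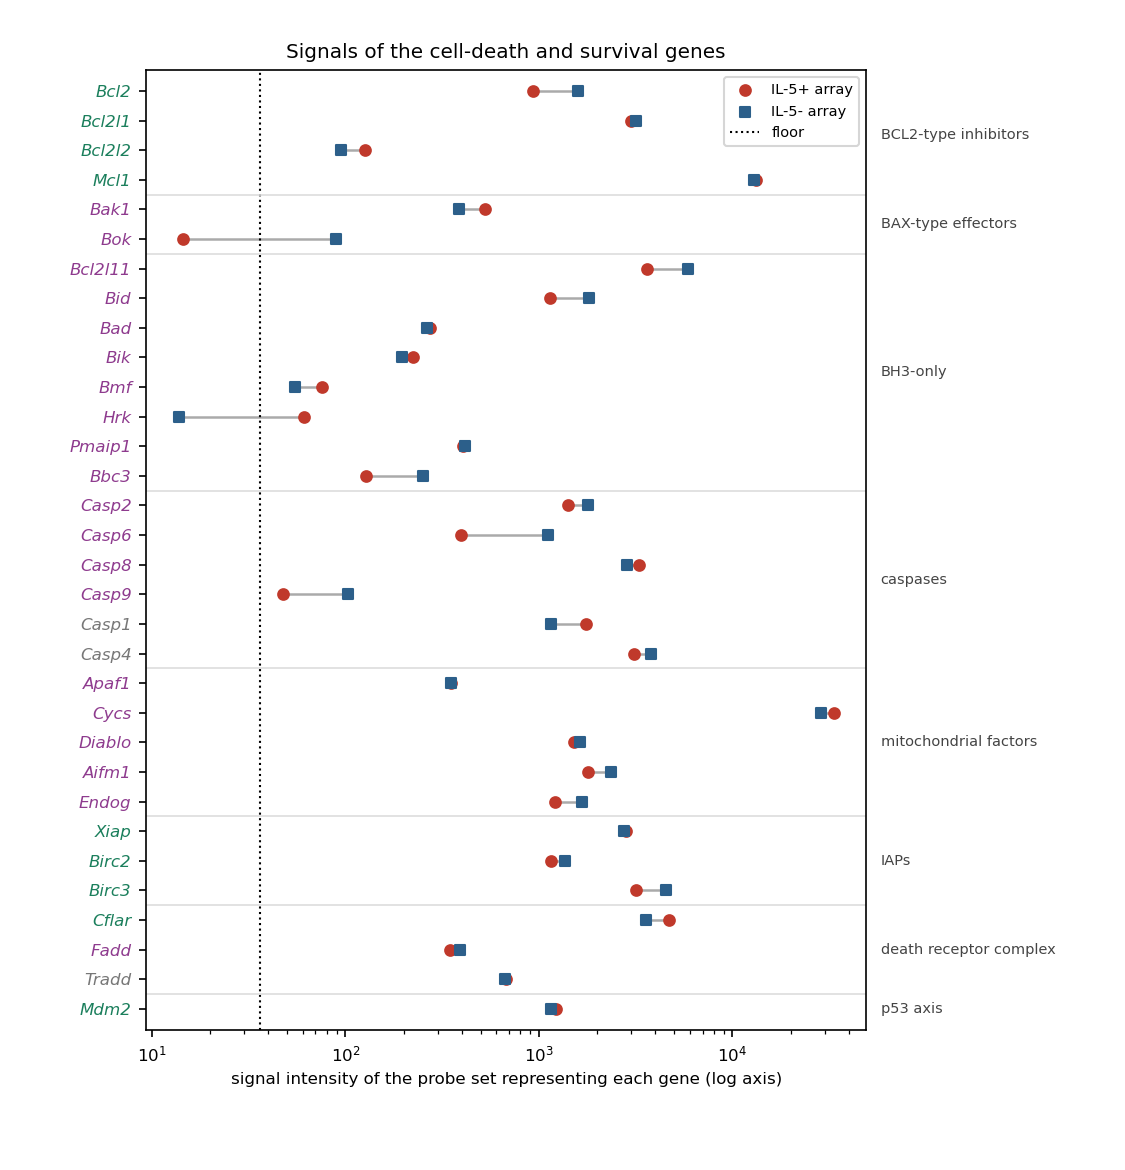
Signal intensity of each gene on the IL-5+ array (red circles) and the IL-5- array (blue squares), on a log axis, at the probe set that represents the gene. Gene names are green for pro-survival, purple for pro-death and grey for genes with both or other roles. The widest gaps between the arrays are at Bok and Hrk, where 1 signal lies under the floor of 36.3 (dotted line), and among genes with both signals above it at Casp6 (396 and 1111).

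Bcl2, the founding inhibitor of the mitochondrial route, was lower in IL-5+ cells at each of its 5 probe sets. Its representative probe set 1457687_at had a signal of 929 in IL-5+ and 1600 in IL-5- cells, a log2 ratio of -0.79 (1.72-fold). Probe set 1440770_at had 479 in IL-5+ against 1223 in IL-5- cells, and 1443837_x_at had 422 against 1079. Both were past 2-fold, at -1.35 each. The other pair, 1422938_at and 1437122_at, stood at -0.86 and -0.59. The 5 probe sets thus gave 1 direction with sizes from 1.51-fold to 2.56-fold. The promoter of Bcl2 is shown because the gene had the lowest ratio of all pro-survival members. It spans 250 bases before to 50 bases after the RefSeq start site, at chr1:106714241-106714540 of GRCm38.p6 on the minus strand, and is written in the direction of transcription. None of the motifs named further on was found in this window, so no letter is in capitals.
Bcl2: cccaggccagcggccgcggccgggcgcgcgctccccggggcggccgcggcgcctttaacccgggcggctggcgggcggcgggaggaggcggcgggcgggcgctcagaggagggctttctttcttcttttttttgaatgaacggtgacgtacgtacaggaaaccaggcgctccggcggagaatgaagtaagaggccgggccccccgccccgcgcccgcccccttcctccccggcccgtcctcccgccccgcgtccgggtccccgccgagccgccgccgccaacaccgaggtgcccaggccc

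The other BCL2-type inhibitors differed less. Bcl2l1, which encodes BCL-XL, had signals of 2972 in IL-5+ and 3166 in IL-5- cells (log2 ratio -0.092), and its 3 measured probe sets ranged from -0.29 to -0.092. Mcl1, a short-lived inhibitor that lymphocytes need, had 13282 in IL-5+ and 12853 in IL-5- cells (0.047). The other 5 of the 6 Mcl1 probe sets were lower in IL-5+ cells, from -0.42 to -0.15, so the sign of this gene depends on the probe set. Bcl2l2, which encodes BCL-W, had dim signals of 126.5 in IL-5+ and 94.6 in IL-5- cells (0.42), and its other 3 probe sets were under the floor on both arrays. Among these 4 genes Bcl2 was the only 1 whose ratio exceeded 2 SDs between probe sets. A further inhibitor of this type, A1, is encoded by several near-identical genes. The brightest probe set annotated to them, 1419004_s_at, lists 3 symbols and had a signal of 19823 in IL-5+ against 11677 in IL-5- cells (0.76). A second one that lists the same number, 1437913_at, had 140 against 59.3 (1.24). Both were higher in IL-5+ cells, opposite to Bcl2, but neither can be assigned to 1 gene, and they are outside the member counts.

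Among the pore formers, Bak1 had signals of 525 in IL-5+ and 384 in IL-5- cells (log2 ratio 0.45). This is 1.22 times the SD between probe sets at its brightness. Bok, a relative that can act without BAX and BAK, had 14.5 in IL-5+ and 89.9 in IL-5- cells. Against the floor this is a difference of at least 2.48-fold. The IL-5- signal is under 112.8, the 60th percentile of all signals, and Bok has 1 probe set, so no second measurement stands beside it.

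The 8 BH3-only genes, which start the mitochondrial route, split evenly, with 4 ratios below 0 and 4 above. Bcl2l11 encodes BIM, the BH3-only protein that limits the survival of activated T cells. It had 3616 in IL-5+ and 5918 in IL-5- cells at 1456005_a_at (log2 ratio -0.71, 1.64-fold). All 5 probe sets were lower in IL-5+ cells, the largest difference being at 1435448_at with 2323 against 4475 (-0.95) and the smallest at 1426334_a_at with 440 against 578 (-0.40). BIM and BCL2 are direct antagonists, and both genes were lower in IL-5+ cells at every probe set.

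Bid encodes the protein that carries the death receptor signal to mitochondria. It had 1144 in IL-5+ and 1808 in IL-5- cells (-0.66), and its 3 probe sets ranged from -0.66 to -0.35. Bbc3, which encodes PUMA, a target of p53, had 128 in IL-5+ and 252 in IL-5- cells at its single probe set (-0.97, 1.96-fold). These 3 genes, Bcl2l11, Bid and Bbc3, were the BH3-only genes beyond 2 SDs. The promoters of Bcl2l11 and Bbc3 are shown because each holds the FOXO motif GTAAACA, here in capitals, read on either strand. FOXO factors are known activators of both genes. The Bcl2l11 window is the first of 2 listed start sites, at chr2:128125788-128126087 on the plus strand, and its motif begins 227 bases before the start site. The Bbc3 window is the second of 3 listed, at chr7:16310011-16310310 on the plus strand, chosen for the motif, which lies on the opposite strand and begins 167 bases before the start site.
Bcl2l11: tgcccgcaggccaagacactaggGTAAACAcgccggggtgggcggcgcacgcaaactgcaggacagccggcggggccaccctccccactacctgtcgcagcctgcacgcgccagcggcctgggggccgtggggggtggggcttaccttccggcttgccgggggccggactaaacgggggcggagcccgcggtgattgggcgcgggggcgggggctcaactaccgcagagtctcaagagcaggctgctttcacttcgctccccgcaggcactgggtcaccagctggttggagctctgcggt
Bbc3: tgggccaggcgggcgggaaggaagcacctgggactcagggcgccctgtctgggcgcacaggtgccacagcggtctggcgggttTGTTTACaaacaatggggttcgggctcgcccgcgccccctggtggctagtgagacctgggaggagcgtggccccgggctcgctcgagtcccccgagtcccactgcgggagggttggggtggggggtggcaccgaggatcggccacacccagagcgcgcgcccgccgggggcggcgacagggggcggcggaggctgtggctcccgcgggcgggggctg

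Of the remaining BH3-only genes, Pmaip1 and Bad gave ratios near 0, and Bmf and Hrk rested on dim signals. Pmaip1, which encodes NOXA, had 407 in IL-5+ and 413 in IL-5- cells (-0.021). Bad, whose protein is held inactive by growth factor kinases, had 274 in IL-5+ and 263 in IL-5- cells (0.061). Both ratios were well inside 1 SD between probe sets, and that of Pmaip1 turned above 0 under each other scaling. Bik was higher in IL-5+ cells at all 3 probe sets, by 0.19 to 0.58, with signals from 186 to 225 in IL-5+ and from 131 to 197 in IL-5- cells. Bmf had 76.0 in IL-5+ and 55.0 in IL-5- cells (0.47), and its other measured probe set pointed the opposite way. Hrk had 60.8 in IL-5+ and 13.8 in IL-5- cells at 1 probe set and 6.80 and 49.2 at the other. Each Hrk probe set was thus above the floor on a different array.

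Caspases are the proteases that dismantle the cell. Casp6, an executioner caspase, had the lowest ratio of the 30 genes above the floor on both arrays. Its signal was 396 in IL-5+ and 1111 in IL-5- cells at 1415995_at, a log2 ratio of -1.49 (2.81-fold lower), which is 5.70 times the SD between probe sets. A second, dim probe set, 1458715_at, had 18.9 in IL-5+ and 48.4 in IL-5- cells and was lower by at least 1.33-fold. Casp9, the initiator that the apoptosome activates, was lower by -1.12 at 1437537_at (47.8 in IL-5+ and 103.6 in IL-5- cells). Its probe set 1426125_a_at gave 80.9 in IL-5+ and 53.9 in IL-5- cells (0.59), so Casp9 has no settled direction. The Casp6 promoter is shown because Casp6 is the member with both signals above the floor that differed most. It lies at chr3:129901165-129901464 on the plus strand and holds none of the motifs searched.
Casp6: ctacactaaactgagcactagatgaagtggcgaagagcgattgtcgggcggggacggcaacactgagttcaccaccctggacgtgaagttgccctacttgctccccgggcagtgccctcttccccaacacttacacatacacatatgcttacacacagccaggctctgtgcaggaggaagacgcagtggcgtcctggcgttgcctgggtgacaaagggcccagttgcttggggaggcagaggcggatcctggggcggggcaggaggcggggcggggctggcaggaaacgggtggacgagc

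The other caspases with apoptotic roles differed by less than 1.5-fold. Casp8, the initiator of the death receptor route, had 3272 in IL-5+ and 2865 in IL-5- cells (0.19). Casp2, linked to stress in the nucleus, had 1415 in IL-5+ and 1800 in IL-5- cells (-0.35). The inflammatory caspases Casp1 and Casp4 are neighbours on mouse chromosome 9. Casp1, which matures IL-18 and IL-1 beta, was higher in IL-5+ cells, with 1749 against 1156 in IL-5- cells (0.60, 1.51-fold). It was the only member more than 2 SDs higher. Casp4, whose protein senses bacterial lipopolysaccharide inside cells, had 3081 in IL-5+ and 3775 in IL-5- cells (-0.29). Each has 1 probe set. The Casp1 window, at chr9:5298267-5298566 on the plus strand, is shown as that of the highest member with both signals above the floor, and holds none of the motifs.
Casp1: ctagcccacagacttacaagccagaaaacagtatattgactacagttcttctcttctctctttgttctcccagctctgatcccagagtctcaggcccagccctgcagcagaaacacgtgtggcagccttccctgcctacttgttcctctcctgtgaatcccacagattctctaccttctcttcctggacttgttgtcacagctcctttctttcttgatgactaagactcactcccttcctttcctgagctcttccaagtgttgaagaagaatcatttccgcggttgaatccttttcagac

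**Figure D2:**
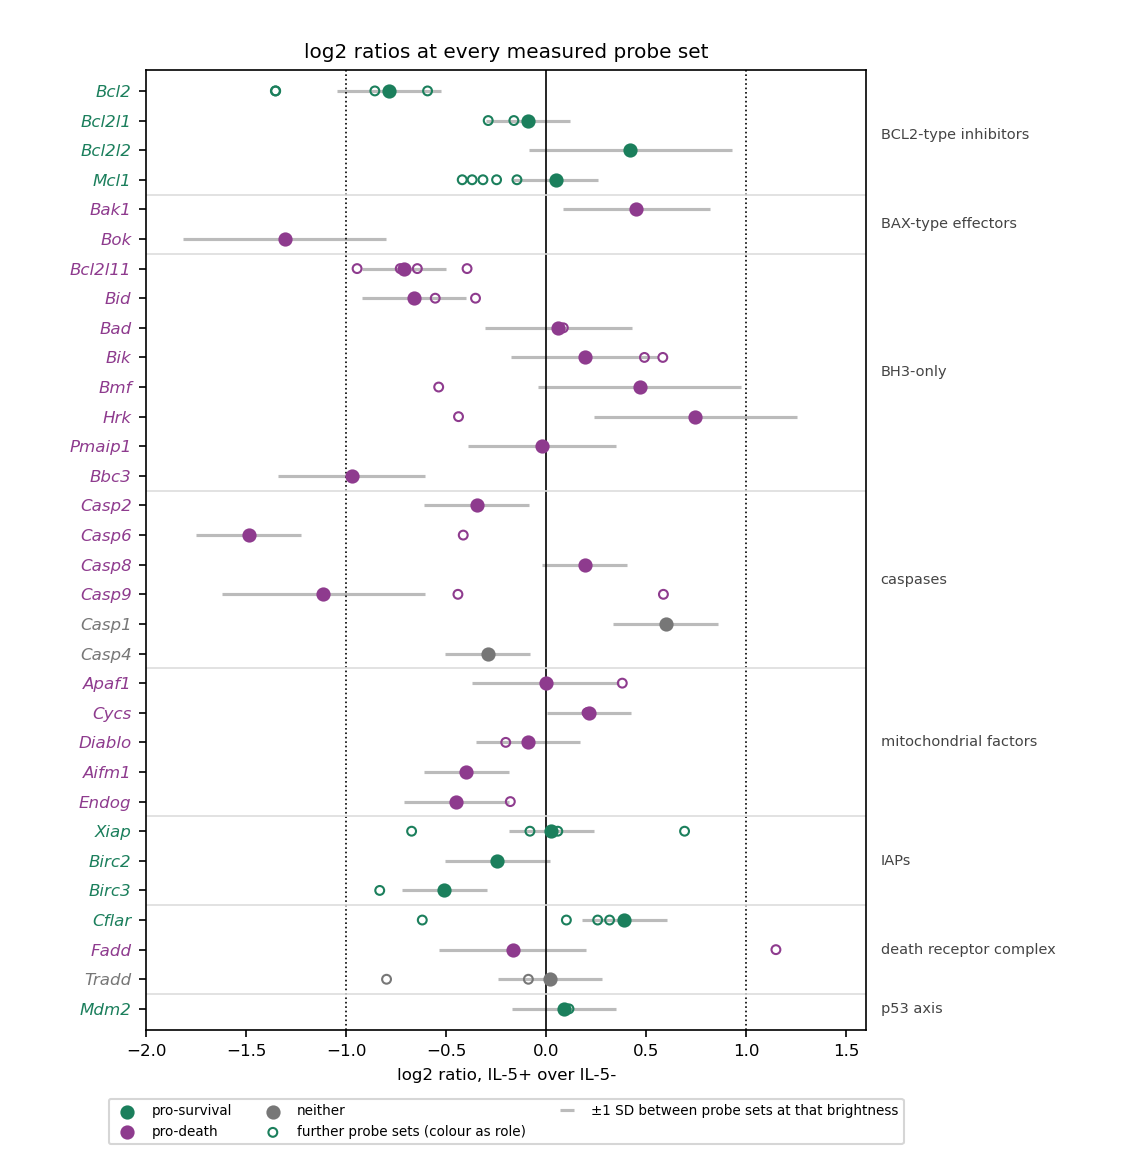
log2 ratio, IL-5+ over IL-5-, at each measured probe set. Filled points are the probe sets that represent the genes, open points are further probe sets, and grey bars are ±1 SD between probe sets of a gene at that brightness. Dotted lines mark 2-fold, and the points of Bok and Hrk are bounds. All 5 points of Bcl2, all 5 of Bcl2l11 and all 3 of Bid lie left of 0, while those of Casp9, Xiap, Fadd and Hrk lie on both sides.

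Caspases and IAPs aside, 5 members act downstream of the mitochondrial pore: Cycs, Apaf1, Endog, Aifm1 and Diablo. None of these reached 1.5-fold, and 4 of 5 had ratios below 0, against 55.5% of all measured named genes. Cycs, encoding cytochrome c, had 33269 in IL-5+ and 28673 in IL-5- cells (0.21), and its 3 measured probe sets were all at 0.20 or 0.21. Apaf1, the scaffold of the apoptosome, had 350.3 in IL-5+ and 351.2 in IL-5- cells (-0.0037), and this ratio was above 0 under each other scaling, from 0.052 to 0.075. A second, dim Apaf1 probe set stood at 0.38. Endog, a mitochondrial nuclease, had 1216 in IL-5+ and 1660 in IL-5- cells (-0.45), with a second probe set at -0.18. Aifm1, a flavoprotein that moves to the nucleus in cell death, had 1792 in IL-5+ and 2364 in IL-5- cells (-0.40). Diablo, whose product SMAC displaces the IAPs, had 1524 in IL-5+ and 1624 in IL-5- cells (-0.092). The Endog and Aifm1 ratios were 1.72 and 1.89 times the SD between probe sets and so did not pass 2 SDs.

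Of the IAPs, Birc3 differed most. It encodes cIAP2, a ubiquitin ligase of TNF receptor signalling induced by NF-kB, and had 3187 in IL-5+ and 4537 in IL-5- cells (-0.51). Its second probe set had 190 in IL-5+ and 338 in IL-5- cells (-0.83), so both were lower in IL-5+ cells. Birc2, which encodes cIAP1 and is its neighbour on chromosome 9, had 1156 in IL-5+ and 1369 in IL-5- cells (-0.24). Xiap, the direct caspase inhibitor, had 2807 in IL-5+ and 2758 in IL-5- cells (0.026). Its 4 other measured probe sets had mean signals under 500 and ranged from -0.67 to 0.69.

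In the death receptor complex, Cflar, which encodes c-FLIP, had 4682 in IL-5+ and 3572 in IL-5- cells at 1449317_at (0.39, 1.31-fold). Probe sets 1424996_at (3802 in IL-5+ and 3053 in IL-5- cells), 1425686_at (855 and 716) and 1425687_at (364 and 339) were also higher in IL-5+ cells. The dimmest, 1453482_at, had 70.8 in IL-5+ and 108.8 in IL-5- cells (-0.62). The Cflar ratio was 1.85 times the SD between probe sets. Fadd, the adaptor of the receptors, had 348 in IL-5+ and 391 in IL-5- cells (-0.17), with a dim second probe set at 1.15 (96.2 and 43.4). Tradd, the adaptor of TNF receptor 1, had 674 in IL-5+ and 665 in IL-5- cells (0.019). Its other measured probe sets stood at -0.089 and, with dim signals of 70.2 and 122.1, at -0.80. Mdm2, the ubiquitin ligase that restrains p53, had 1230 in IL-5+ and 1157 in IL-5- cells (0.089) and a second measured probe set at 0.11. The Cflar window, at chr1:58711241-58711540 on the plus strand, is shown because it was the only promoter among the measured members with the interferon-type element GAAANNGAAA, here in capitals on the opposite strand.
Cflar: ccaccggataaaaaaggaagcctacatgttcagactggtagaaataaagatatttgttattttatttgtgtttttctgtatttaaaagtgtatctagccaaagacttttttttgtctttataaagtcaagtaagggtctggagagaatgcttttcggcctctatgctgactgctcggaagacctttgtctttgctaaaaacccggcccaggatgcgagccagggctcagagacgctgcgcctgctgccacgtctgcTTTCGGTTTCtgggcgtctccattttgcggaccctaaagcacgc

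Promoters were available from RefSeq (GRCm38.p6) for 33 of the 36 listed genes, as 46 start sites of 300 bases. In these windows 5 motifs were searched on both strands. GTAAACA was in 5 of the 46 (10.9%), those of Bbc3, Bcl2l11, Casp4 with a pair of overlapping windows, and Mdm2, and in 3.65% of all 32851 promoters. GAAANNGAAA was in 2 (4.35%, against 3.44%), and the STAT-type element TTCNNNGAA in 1 (2.17%, against 8.30%). An NF-kB site, which has variable letters, was in 7 (15.2%, against 4.51%), and a p53 half-site in 5 (10.9%, against 8.36%). The NF-kB matches were in Aifm1, Bbc3 at another start site than the one shown, Bcl2l1, Bmf, Casp4 with both windows, and Trp53. The members' promoters had a median GC content of 61.7%, against 52.7% for all promoters, and the shares were not adjusted for it. A match describes letters in a window and no binding.

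Pro-survival and pro-death members were then set against each other. The 9 measured pro-survival genes were the BCL2-type inhibitors, IAPs, Cflar and Mdm2, and their median log2 ratio was 0.026, with 4 below 0. The 20 measured pro-death genes had a median of -0.13, with 13 (65%) below 0, where 55.5% of all measured named genes were below 0. Of the 13, Pmaip1 (-0.021) and Apaf1 (-0.0037) were near 0, and both were above 0 under each other scaling. The medians differed by 0.16, and no measure of error for this difference is available from 1 array per group. More than 2 SDs lower were 2 of the 9 pro-survival genes (Bcl2 and Birc3) and 6 of the 20 pro-death genes. The background for this rule was 7.42%, not matched for brightness. The 6 include Casp9, whose probe sets point both ways, and Bok, whose ratio is a bound. Among genes with a mean signal of 500 or more, 9 pro-death genes had a median of -0.40 with 7 below 0, and 8 pro-survival genes had -0.033 with 4 below 0. All named genes with signals from 500 to 2000 had a median of -0.051 with 56.7% below 0, and those above 2000 had 0.0061 with 48.2% below 0.

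The difference between the roles depended on the probe sets. Over all measured probe sets rather than 1 per gene, the 40 pro-death probe sets had a median of -0.19 and the 30 pro-survival ones -0.20. When the median over a gene's probe sets was taken, the pro-death median was -0.091 and the pro-survival median -0.16, so their order turned. The pro-survival median moved mainly with Mcl1, at -0.28 there. Of 21 members with 2 or more measured probe sets, 8 had all of them below 0, against 29.0% of 6141 named genes. These were Bcl2, Bcl2l1, Bcl2l11, Bid, Birc3, Casp6, Diablo and Endog. All were above 0 in 4 members (Bad, Bik, Cycs and Mdm2), against 23.0%.

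**Figure D3:**
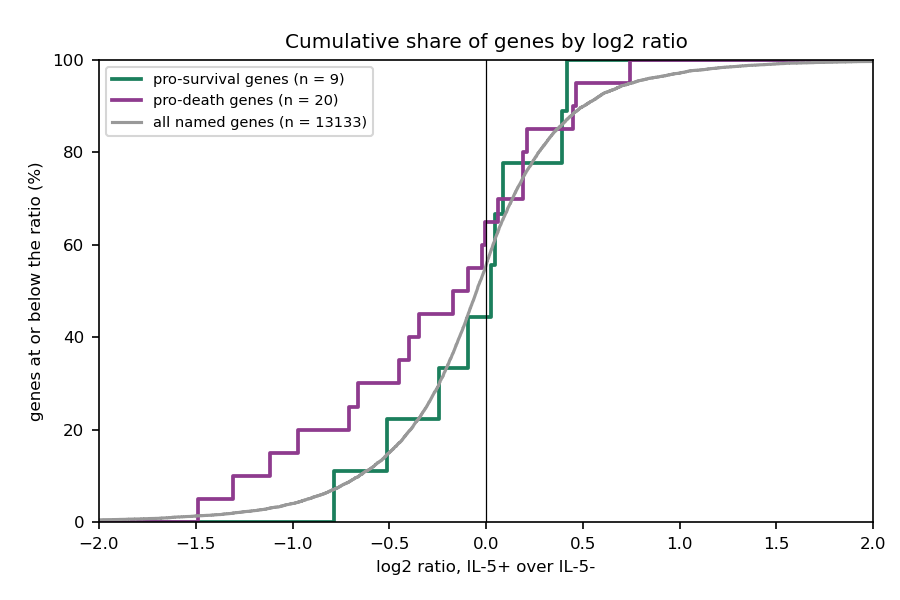
Cumulative share of genes (percent, y axis) by log2 ratio of IL-5+ over IL-5- (x axis) for 9 pro-survival genes (green), 20 pro-death genes (purple) and 13133 named genes (grey). Between -1.49 (Casp6) and 0 the purple line lies above the grey one. Bok and Hrk are drawn at their bounds.

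**Figure D4:**
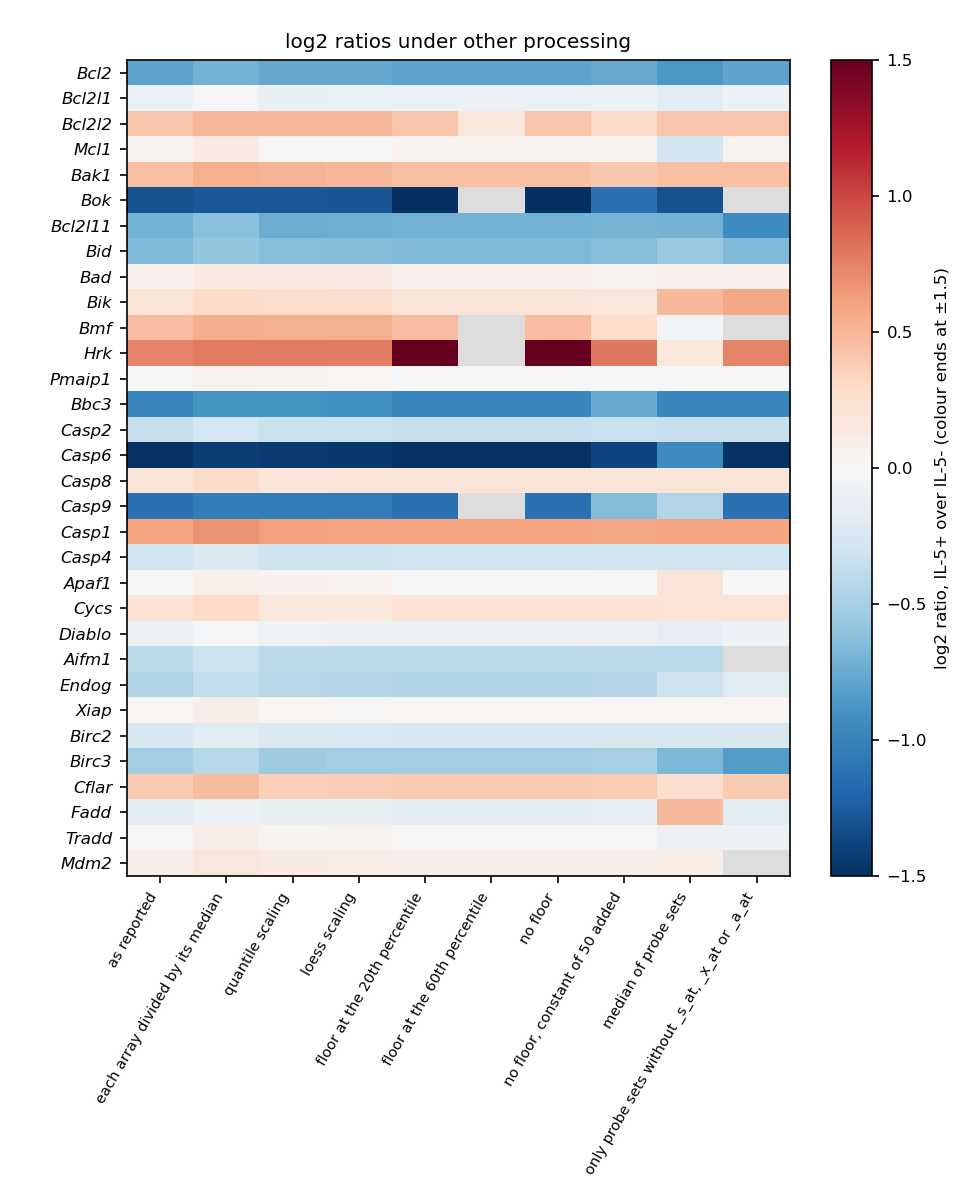
log2 ratio of each gene as reported (left column) and under 9 other ways of scaling, flooring or choosing probe sets. Blue is lower and red higher in IL-5+ cells, and grey cells had no value. Bcl2, Bcl2l11, Bid, Bbc3 and Casp6 are blue and Casp1 is red in every column.

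Other genes of the same pathways were taken from 7 lists with 61 different genes. Of these 51 were measured. In IL-5+ cells 5 were higher and 4 lower by 2-fold or more, against 2.85% and 4.01% of all measured named genes. The lists, like the members, were chosen with earlier results of these data known, so this comparison is not independent of the data. The median log2 ratio of the 51 was -0.061. In each list the 3 genes with the largest difference measured on both arrays are named. Of the 5 higher genes, 4 were in the list of death receptors and ligands or the list of adaptors and necroptosis genes. Tnfsf10, which encodes the death ligand TRAIL, had 1621 in IL-5+ and 470 in IL-5- cells (1.79), and all 3 probe sets were past 2-fold. Mlkl, the pore former of necroptosis, had 1015 in IL-5+ and 319 in IL-5- cells (1.67). Traf1, a TNF receptor adaptor that binds the cIAPs, had 4166 in IL-5+ and 1938 in IL-5- cells (1.10), with a second probe set at 0.42. Tnfrsf25, a T cell death domain receptor, had 3787 in IL-5+ and 1802 in IL-5- cells (1.07). In the same lists Lta, a TNF family ligand, stood at -0.85 and Gsdmd, the pore former of pyroptosis, at -0.65.

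Genes linked to p53 had ratios on both sides of 0. Perp, a membrane protein gene induced by p53, had 879 in IL-5+ and 275 in IL-5- cells (1.68), and Sesn2 stood at 0.72 with a second probe set at -0.38. Trp53inp1, a stress gene of the same pathway, had 4897 in IL-5+ and 14455 in IL-5- cells (-1.56), and its second probe set was at -0.81. By 2-fold or more 1 of 14 genes was higher and 1 lower, with the same backgrounds of 2.85% and 4.01%, and the list's median was -0.12. Among BCL2 relatives, Bnip3, a BH3-like gene of mitophagy, had 86.0 in IL-5+ and 279.5 in IL-5- cells (-1.70), while Bcl2l12 and Bcl2l14 stood at -0.38 and 0.27. Among survival kinases and cytokine receptors, Pim2, a kinase that phosphorylates BAD, had 1868 in IL-5+ and 4331 in IL-5- cells (-1.21). Il4ra, the IL-4 receptor chain, had 543 in IL-5+ and 1157 in IL-5- cells (-1.09), and Il2rb stood at 0.43. In the lists of other caspases with nucleases and of other IAPs no gene reached 2-fold. Their largest differences were Casp8ap2 (-0.40), Casp14 (0.32) and Htra2 (-0.19, with a second probe set at 0.0074), and Birc5 (-0.56), Naip2 (0.30) and Birc6 (-0.024, with 6 probe sets from -0.064 to 0.80).

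**Figure D5:**
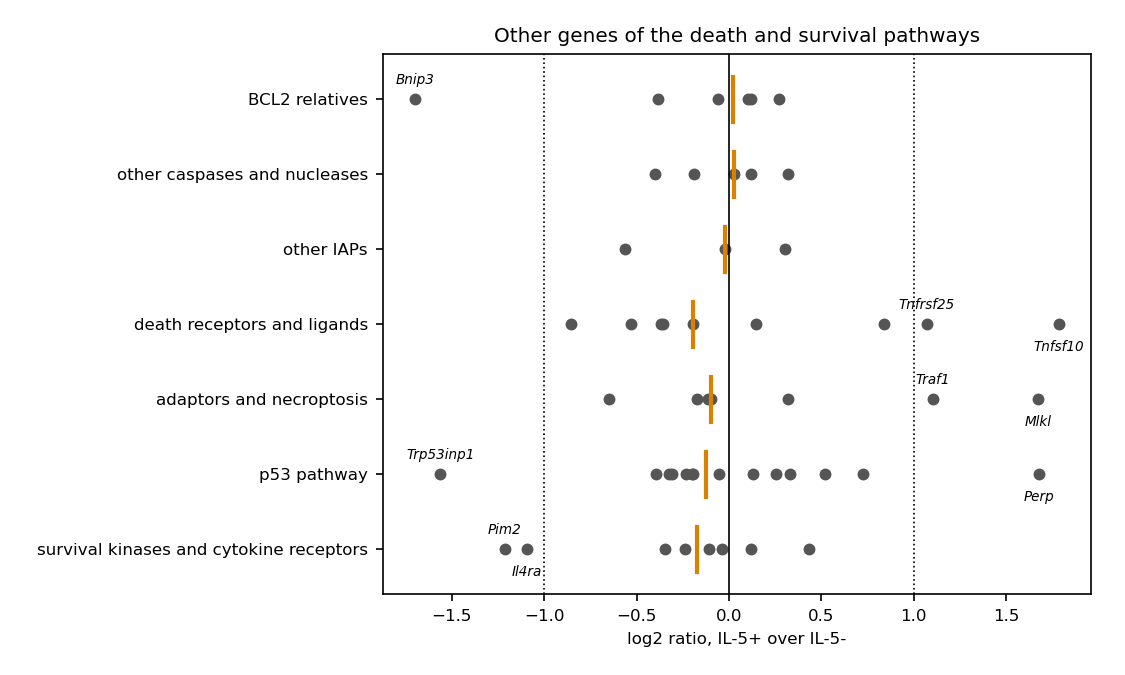
log2 ratios, IL-5+ over IL-5-, of the measured genes in 7 further lists, 1 point per gene. Orange bars are list medians and dotted lines mark 2-fold. The named points outside the dotted lines are the 5 genes higher and the 4 lower in IL-5+ cells by 2-fold or more.

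Markers of other cell types were mostly dim. B cell markers had 2 of 4 genes above the floor, with signals up to 60.7 in IL-5+ and 70.2 in IL-5- cells. Monocyte and macrophage markers had 3 of 5, up to 105.6 and 124.5. Dendritic cell and MHC class II markers had 4 of 5 above the floor, with summed signals of 368 in IL-5+ and 665 in IL-5- cells. This sum was lower in IL-5+ cells, as Bcl2, Bcl2l11 and Casp6 were, but it was not alone. Also lower were the sums for B cell (93.8 and 174.7), monocyte and macrophage (174 and 260) and NK cell markers (721 and 1497). So were those for mast cell and basophil (151 and 171) and neutrophil markers (10.4 and 48.8), while the CD8 sum was higher (347 and 245). The sum over the 6 T cell markers was 33867 in IL-5+ and 41754 in IL-5- cells. Apart from the CD8 and T cell sums, these sums include signals under the floor. In the B cell sum Ms4a1 was nearly level (60.7 in IL-5+ and 62.1 in IL-5- cells), while Pax5 had 6.4 and 70.2. Eomes made up most of the NK cell sum on both arrays. Mast cell and basophil markers had 2 of 4 above the floor, up to 122.7 and 106.3, and both neutrophil markers were under the floor. The NK cell list had 2 of 3, and these went opposite ways. Eomes, which memory T cells also express, had 641 in IL-5+ and 1472 in IL-5- cells. Fcer1g had 61.4 in IL-5+ cells and 4.7, under the floor, in IL-5- cells. Of the CD8 genes, Cd8b1 had 280 in IL-5+ and 168 in IL-5- cells, while Cd8a went the other way with 66.9 and 76.7. The part of such cells in the results was not tested, and in bulk RNA fewer cells expressing a gene and less RNA per cell cannot be told apart.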

How the data were processed

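For each array the authors deposited linear intensity values, 1 for each probe set. GCOS, which runs Affymetrix scanners, made them per the submitters' processing notes. Version, algorithm, scaling target and detection calls were not given in the sources used here. Without the lowest and highest 2% of probe sets, signals averaged 496 for IL-5+ and 497 for IL-5- cells, so ratios are relative to the rest of each array. Of 45037 probe sets, the platform annotation gives 34945 a single symbol and 932 several, and leaves out 9160. All 85 member probe sets matched a RefSeq gene of GRCm38.p6 by entrez identifier, with no symbol changed. No build is named for the array values. With 1 array per group nothing was tested. Members and gene lists were chosen with earlier results of these data known. All members are named, and 3 genes per further list by size of ratio. Pro-survival, pro-death and other roles were assigned by textbook function. Counting was tested on simulated data. Alternatives were other scalings (array median, quantile, loess with span 0.3), floors at the 20th or 60th percentile or none, an added constant of 50, other choices of probe set, and thresholds of 1.5-fold and 3-fold. The number of arrays limits the precision. Python 3.11.15, numpy 2.4.6, pandas 2.3.3, statsmodels 0.14.6 and matplotlib 3.10.9 were used.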

Additional observations from a re-analysis of the deposited data

How the results depend on the processing

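No member changed the direction of a 2-fold difference under any alternative tried. None of the alternatives used the opposing Casp9 probe set 1426125_a_at, at 0.59, on its own. The number of members at least 2-fold lower, 3 as reported, was 1 when the floor was the 60th percentile and 1 when a gene's probe sets were averaged by their median, 2 with the constant of 50 added and 2 with only unsuffixed probe sets, 7 at a 1.5-fold threshold and 0 at 3-fold. With the 60th percentile floor 28 members remained measured, and the 1 lower gene was Casp6. With the median of probe sets it was Bok, as Casp6 came to -0.95 and Casp9 to -0.44. The number at least 2-fold higher, 0 as reported, was 1 with a floor at the 20th percentile and 1 with no floor (Hrk at 2.14 in both) and 2 at 1.5-fold. Over all named genes the shares higher were 7.98% and 11.3% with those lower floors, and the shares lower were 2.48% with the 60th percentile floor, 3.41% with the median of probe sets, 1.65% with the constant, 4.0% for unsuffixed probe sets and 1.09% at 3-fold. The pro-survival median, 0.026 as reported, ranged from -0.16 to 0.10 and the pro-death median, -0.13 as reported, from -0.13 to -0.051. Their difference ranged from -0.071 to 0.16, so its sign depends on how probe sets are chosen. Of 280 values of single genes under alternatives, 269 moved by less than 0.35. A change of floor leaves a ratio as it was where both signals lie above it, so part of these values could not move. The sign of Pmaip1 and Apaf1, both near 0, differed under the other scalings. Fadd came to 0.49 and Mcl1 to -0.28 with the median of probe sets. The median log2 ratio of all named genes moved from -0.048 to 0.026 when arrays were divided by their medians. Signals of Bok, Hrk, Bmf and Casp9 lie near the floor and limit what can be said of these genes. No paired analysis was possible because each group has 1 array.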
